A study of Mus musculus with 4 samples.

Results

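The genes described here encode the enzymes and the helper protein that turn islet prohormones into hormones: the proprotein convertases Pcsk1, Pcsk2 and Furin, the Pcsk2 chaperone Scg5, the carboxypeptidases Cpe and Cpd, and the amidating enzyme Pam. They were chosen by name, 7 genes of the 54532 in the table, and each was found and was high enough to be compared. Islets of male C57BL/6 mice, 10 to 12 weeks old, were the source of RNA for 4 sequencing libraries. Wild-type mice gave 2 of them, and mice with a miR-29a/b-1 transgene overexpressed in pancreatic beta cells gave the other 2. The sources used here give neither the promoter of the transgene nor how many mice stand behind a library. So p-values here reflect how these libraries vary, and that variation may be technical.

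A prohormone such as proinsulin is cut in the trans-Golgi network and in maturing granules after pairs of basic residues. Pcsk1 and Pcsk2 make these cuts in granules, whereas Furin works mostly in the trans-Golgi network on growth factors, receptors and other constitutively secreted proteins. Cpe then trims the exposed basic residues from the carboxyl end, Cpd can do the same in the trans-Golgi network, and Pam converts a carboxyl-terminal glycine into an amide, as in amylin. Scg5, also called 7B2, holds pro-Pcsk2 inactive and folded until it reaches acidic granules. In beta cells Pcsk1 and Pcsk2 make insulin and C-peptide, and in alpha cells Pcsk2 makes glucagon. miR-29a and miR-29b are microRNAs, which pair through a short seed with messenger RNAs and lower their level or translation.

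The mature forms of both transgene microRNAs are shown because the genes below were searched for matches to them. Their sequences are those of RefSeq on GRCm38.p6, with the seed, bases 2 to 8, in capitals.
miR-29a-3p: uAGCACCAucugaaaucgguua
miR-29b-3p: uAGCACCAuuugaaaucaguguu
Both share the same seed. The longest annotated 3' UTR of each gene (GENCODE M21, the strand of the transcript) was searched for TGGTGCT, which pairs with bases 2 to 8, and for GGTGCTA, which pairs with bases 2 to 7 and has A opposite base 1. Where these overlap in an 8-mer they count as 1 match. Cpd held 1 match, TGGTGCT, starting at base 2603 of its 3' UTR of 3760 bases (chr11:76779575-76779581, minus strand, GRCm38), shown in capitals within its surroundings.
Cpd: gaactccgggTGGTGCTgggatctgat
No match to these letters was found in the 3' UTRs of Pcsk1, Pcsk2, Cpe, Scg5, Pam and Furin, which are 439 to 2542 bases long. Of the 10796 genes compared that have an annotated 3' UTR, 18.8% held at least 1 such match, and their median 3' UTR is 1187 bases long.

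Reads in genes came to between 21670854 and 27080907 per library. The defining markers of islets were present, since each of the 9 beta, 7 alpha and 5 delta and PP cell genes had reads in every library. Mir29a was counted 3 times in wild type 2 and 0 times elsewhere, and Mir29b-1 had 0 reads in each of the 4. With 0 reads, a true count of up to 3 is still possible. Mature microRNAs are too short for such libraries, so these loci check neither label nor overexpression. The libraries numbered 1 stood apart from those numbered 2 in both genotypes, and it is not stated what the number stands for. The 15 acinar genes, of the exocrine cells around islets, summed to 4817 and 6610 FPKM in wild type 1 and transgenic 1 and to 1019 and 1794 in wild type 2 and transgenic 2. The 9 immediate early genes, which cell dissociation can induce, summed to 2589 and 3613 against 526 and 763. The 5 delta and PP cell genes summed to 6465 and 6887 against 13489 and 13586. This last sum was made up mostly of Ppy and Sst, and the numbers overlapped for Ghsr. Differences are therefore also given within each number.

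Together the 7 genes made up 0.916% of all reads for wild type 1 (0.912 to 0.919), 0.956% for wild type 2 (0.952 to 0.960), 0.989% for transgenic 1 (0.985 to 0.993) and 0.976% for transgenic 2 (0.971 to 0.980). The ranges in brackets are exact binomial intervals at 95%, which cover counting error only. Each share also depends on the reads of all other genes. The beta cell genes took 27.6% of the reads of wild type 1 but 19.9% of those of transgenic 1. For the libraries numbered 2 these shares were 34.2% and 32.8%. By summed FPKM, the set in transgenic islets was 1.007 times its wild-type level for number 1 and 0.991 times for number 2. What raised the shares of the set was not tested. Per length, the genes spanned more than 2 orders of magnitude, and their order was the same in every library. Cpe was highest, at rank 17 of all genes by mean FPKM, followed by Scg5 at rank 30, Pcsk2 at rank 49 and Pcsk1 at rank 192. Pam was at rank 714, Cpd at rank 2655 and Furin, the enzyme of the constitutive pathway, at rank 5369. No neighbours in this order overlapped over the 4 libraries. The closest were Scg5 and Pcsk2, chaperone and client, with a ratio of FPKM between 1.24 and 1.54, and Cpd and Furin, with a ratio between 1.60 and 2.79. Length here covers all annotated exons of a gene: 1569 bases for Scg5, 7910 for Pcsk2, 8332 for Cpd and 9178 for Furin. Order and ranks depend on these lengths, and whether they hold with the lengths of single transcripts was not tested.

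**Figure D1:**
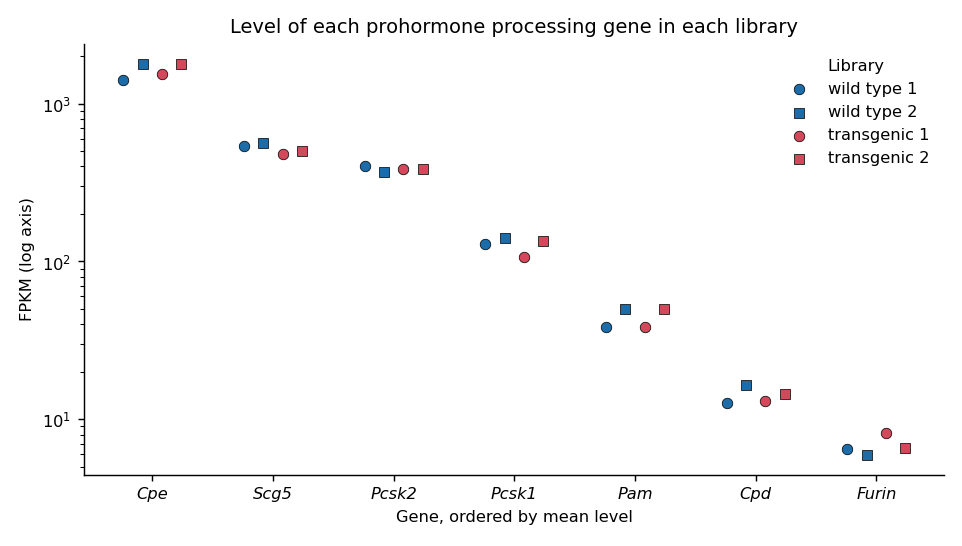
FPKM of each gene (log axis) in each library, with colour for genotype (blue wild type, red transgenic) and shape for library number (circle 1, square 2). Every gene sits in its own range, from Cpe at 1421 to 1797 FPKM down to Furin at 5.92 to 8.23.

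Transgenic islets were compared with wild-type islets first. The question is how islet transcripts respond to more miR-29a and miR-29b-1 in beta cells. None of the 7 genes passed the test in either direction, nor did any of the 12716 genes compared in the fit with genotype as the only term (0% called by limma with adjustment at 0.05). Without adjustment limma put 83 genes under 0.05 and voom on the reads 35, and voom called 0 genes with adjustment. Number was not a term in this fit, so differences between the numbers counted as variation within each genotype. For genes that differ between the numbers, this widens the standard errors and intervals given below. In FPKM the genotypes did not overlap for Furin, which was higher, and for Scg5, which was lower in transgenic islets. That is 1 gene of 7 in each direction, against 12.2% of all genes compared higher without overlap and 9.03% lower. The set is thus near the background. As shares of reads the genotypes overlapped for Furin but not for Scg5. Over the set, 3 genes were higher in both numbers and 2 lower, against 33.5% and 27.4% of all genes. The median difference was 0.005 in log2(FPKM + 1), against 0.012 for all genes. Because whole islets were sequenced, fewer cells of a type and less RNA per cell cannot be told apart. All 13 acinar genes and all 9 immediate early genes compared were higher in transgenic islets of each number, with medians of 0.62 and 0.56, though the genotypes overlapped for each. The 9 beta cell genes summed to 223773 and 286794 FPKM in the wild-type libraries and to 151481 and 271404 in the transgenic ones, a sum made up mostly of Ins2, Ins1 and Iapp. Of these 9 genes 2 were higher in transgenic islets without overlap, Mafa (0.42 ± 0.23) and Nkx6-1 (0.31 ± 0.17, limma adjusted p = 1.00 for both), named after their values were seen, and 2 were lower, Ins1 and Iapp. Mafa and Nkx6-1 have the highest GC content of the 9, 65.0% and 59.0%, and its part in their differences was not tested. The part of the acinar, immediate early and beta cell genes in the differences below was not tested either.

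Pcsk1 (chromosome 13, 75089826 to 75134861), the convertase that cuts proinsulin at the junction of B chain and C-peptide, measured 129.8 and 141 FPKM in the wild-type libraries and 108 and 136 in the transgenic ones, number 1 before number 2. Transgenic 1 was the lowest library, and transgenic 2 lay between the wild-type ones. The difference was -0.16 ± 0.20 (standard error, n = 2 per group, limma adjusted p = 1.00, 95% interval -0.70 to 0.37), with -0.27 in number 1 and -0.06 in number 2. An alternative chosen after seeing the data took each gene's deviation from its mean over the libraries and fitted each library's smooth curve on GC content. After this curve was subtracted, the difference was -0.06 ± 0.17 (limma adjusted p = 1.00). Pcsk1 has the lowest GC content of the set, 40.6%. Without transgenic 1 the difference was 0.0023.

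Pcsk2 (chromosome 2, 143546156 to 143816285), which cuts at the other junction of proinsulin and releases glucagon, measured 404 and 367 FPKM in the wild-type libraries and 388 and 385 in the transgenic ones. Both transgenic libraries fell between the wild-type ones. The difference was 0.01 ± 0.18 (n = 2 per group, limma adjusted p = 1.00, 95% interval -0.47 to 0.48), of opposite sign in number 1 (-0.06) and number 2 (0.07). Exons of the antisense transcripts Pcsk2os1 and Pcsk2os2 cover 3.29% and 1.25% of its exon bases, with at most 466 and 169 reads in any library against 64034 to 79036 of Pcsk2. As the strand setting of the counting is not given, reads of these partners cannot be told apart from those of Pcsk2. The same holds for Gm44851 within Furin (1.29% of its exon bases, at most 4 reads). B230216N24Rik covers 1.58% of the exon bases of Pam, with at most 96 reads. It lies on the strand of Pam, so no strand setting could tell their reads apart there.

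Scg5 (chromosome 2, 113776362 to 113829121) measured 541 and 563 FPKM in the wild-type libraries and 479.9 and 502 in the transgenic ones. Both transgenic libraries were below both wild-type libraries, in FPKM by nearly the same step in each number: the transgenic level was 0.886 times the wild-type level in number 1 and 0.892 times in number 2. As shares of reads the values were 0.0854% and 0.0846% in the wild-type libraries and 0.0821% and 0.0764% in the transgenic ones. On that measure the step was smaller in number 1 than in number 2. The means were 552 ± 15.4 and 491 ± 15.6 FPKM (SD, n = 2 per group). The difference of -0.17 ± 0.18 did not pass (limma adjusted p = 1.00, 95% interval -0.64 to 0.31). It was -0.14 to -0.20 when each library was left out in turn.

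Furin (chromosome 7, 80388585 to 80405436) measured 6.43 and 5.92 FPKM in the wild-type libraries and 8.23 and 6.58 in the transgenic ones. Transgenic 1 stood highest, while transgenic 2 was only just above wild type 1. As shares of reads the values were 0.00594% and 0.00520% in the wild-type libraries and 0.00823% and 0.00585% in the transgenic ones. On that measure the genotypes overlapped, with transgenic 2 below wild type 1. These values rest on 1268 to 1947 reads per library, the fewest of the set, with a counting error of 2.66% in the wild-type and 2.55% in the transgenic group. The difference was 0.22 ± 0.16 (n = 2 per group, limma adjusted p = 1.00, 95% interval -0.19 to 0.64), with 0.31 in number 1 and 0.13 in number 2. Furin has the highest GC content of the set, 55.9%. Removing the GC curve left 0.11 ± 0.12 (limma adjusted p = 1.00). Without transgenic 1 it was 0.08.

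Cpe (chromosome 8, 64592542 to 64693054), which removes the basic residues that the convertases leave, measured 1421 and 1773 FPKM in the wild-type libraries and 1536 and 1797 in the transgenic ones. The genotypes overlapped, and both libraries numbered 2 were above both numbered 1. The difference was 0.07 ± 0.22 (n = 2 per group, limma adjusted p = 1.00, 95% interval -0.53 to 0.67), with 0.11 in number 1 and 0.02 in number 2. Cpd (chromosome 11, 76778424 to 76847018), the gene with the seed match shown above, measured 12.6 and 16.5 FPKM in the wild-type libraries and 13.1 and 14.5 in the transgenic ones. Both transgenic libraries lay between the wild-type ones. Its difference was -0.06 ± 0.18 (n = 2 per group, limma adjusted p = 1.00, 95% interval -0.55 to 0.43), with 0.06 in number 1 and -0.18 in number 2.

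Pam (chromosome 1, 97795114 to 98095646), the only enzyme of the set that amidates peptides, measured 38.3 and 49.7 FPKM in the wild-type libraries and 38.5 and 50.2 in the transgenic ones. Within a number the genotypes were nearly level, at transgenic to wild-type ratios of 1.01 and 1.01. The difference was 0.01 ± 0.23 (n = 2 per group, limma adjusted p = 1.00, 95% interval -0.61 to 0.63). This interval is wide because the difference between the numbers, given below, counts as variation within each genotype.

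**Figure D2:**
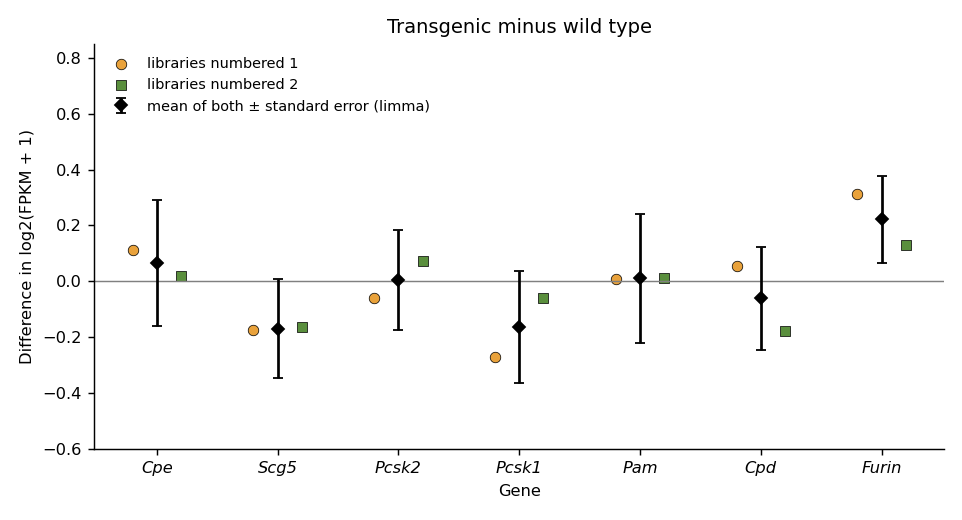
Difference in log2(FPKM + 1), transgenic minus wild type, for each gene: orange circles for the libraries numbered 1, green squares for those numbered 2, and black diamonds for the mean of both with its limma standard error. Scg5 lies at -0.17 in each number, Furin at 0.31 and 0.13, and Pam at 0.01 in each.

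The libraries numbered 2 were then compared with those numbered 1, since the number, unlike the genotype, separated many genes. In this comparison limma called 20.7% of the genes compared, 10.1% higher and 10.6% lower in number 2. Of the set, 1 gene of 7 was called, Pam, which was higher; at 10.1% of all genes this is near the background. The numbers did not overlap for 4 genes higher in number 2 (Cpe, Pcsk1, Pam and Cpd) and for 1 lower (Pcsk2), against 34.4% and 32.4% of all genes. The median difference of the set was 0.23, against 0.01 for all genes. A rise was not particular to the set: the medians were 0.29 for the beta, 0.68 for the alpha and 0.56 for the delta and PP cell genes. Those of the acinar and immediate early genes were -2.04 and -2.15. The set's median was 0.09 without transgenic 1 and 0.11 with the GC curve removed.

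Pam rose from number 1 to number 2 by 0.37 ± 0.09 (n = 2 per number, limma adjusted p = 0.0365, 95% interval 0.16 to 0.59), and number 2 was 1.30 times number 1 in wild-type and also 1.30 times in transgenic islets. The call ended without each of the 4 libraries (limma adjusted p between 0.0657 and 0.216) and with no filter on low values (0.0728), while the difference stayed between 0.37 and 0.38 without any of the libraries. The sums of the acinar, immediate early, and delta and PP cell genes given above also differ between the numbers. The medians of the alpha and beta cell genes were higher in number 2 as well. The part of these genes in this result was not tested.

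Cpe, Cpd, Pcsk1 and Scg5 had the sign of Pam in both genotypes and did not pass. Cpe differed by 0.27 ± 0.11 (limma adjusted p = 0.126, 95% interval 0.01 to 0.54), with 0.32 in wild type and 0.23 in transgenic islets. Cpd differed by 0.25 ± 0.10 (limma adjusted p = 0.133), with 0.37 and 0.13. Pcsk1 differed by 0.23 ± 0.12 (limma adjusted p = 0.226), with 0.12 and 0.33, and by 0.11 ± 0.09 with the GC curve removed. Leaving out a library moved Pcsk1 between 0.09 (without transgenic 1) and 0.36 (without wild type 1). The endoproteases Pcsk2 and Furin had the opposite sign, at -0.07 ± 0.10 (limma adjusted p = 0.617) and -0.19 ± 0.13 (0.320). They were -0.12 and -0.11 once the GC curve was subtracted, and Furin ranged from -0.35 (without wild type 1) to -0.04 (without transgenic 1). Scg5 differed by 0.06 ± 0.12 (limma adjusted p = 0.744).

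**Figure D3:**
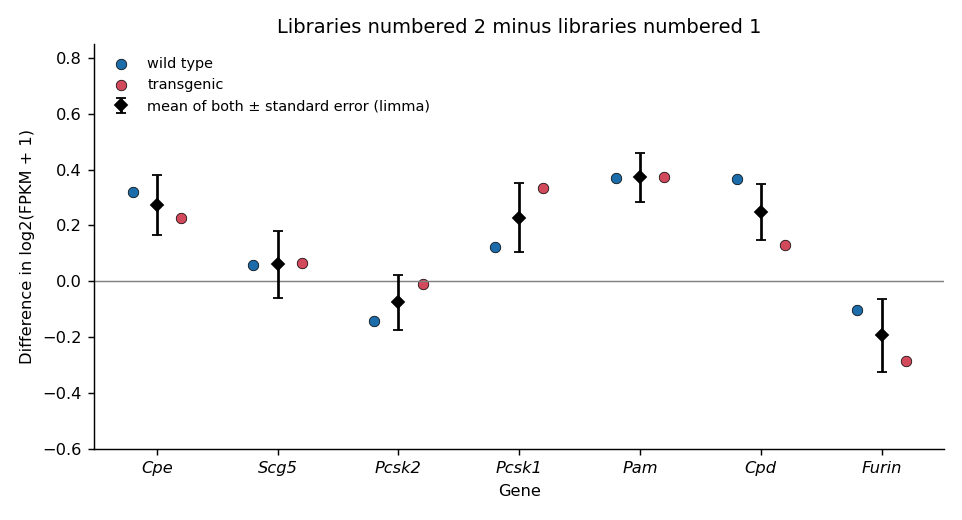
Difference in log2(FPKM + 1), libraries numbered 2 minus libraries numbered 1, in wild type (blue) and transgenic islets (red), with the mean of both and its limma standard error as black diamonds. Pam lies at 0.37 in each genotype, Cpe, Cpd and Pcsk1 at means of 0.23 to 0.27, and Pcsk2 and Furin below 0.

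Since FPKM are per length, ratios between the genes could be compared within a library, where any scaling of the library cancels. The size of a ratio depends on the gene lengths used, while its change from library to library does not. The Pcsk2 to Pcsk1 ratio was 3.11 and 2.59 in the wild-type libraries against 3.61 and 2.84 in the transgenic ones, number 1 before number 2, so it was higher in transgenic islets of each number, but the genotypes overlapped. The Scg5 to Pcsk2 ratio, chaperone to client, was 1.34 and 1.54 in wild type and 1.24 and 1.30 in transgenic islets, without overlap. The Cpe to Cpd ratio was 113 and 107 against 117 and 124, also without overlap. The Pcsk1 to Furin ratio was 20.2 and 23.9 against 13.1 and 20.6, with transgenic 1 far below the rest. An effect of GC content does not cancel in a ratio, and these genes have the lowest and highest of the set, 40.6% and 55.9%. The Pam to Cpe ratio stayed between 0.0250 and 0.0280 in all libraries. Of these 5 ratios and the summed level of the 7 genes, none could pass, because the smallest 2-sided p that exact permutation of 2 and 2 libraries can give is 0.333. The exact p was 0.333 for Scg5 to Pcsk2 and for Cpe to Cpd, 0.667 for the other 3 ratios and 1.00 for the sum (adjusted over the 6: 0.80 for the ratios, 1.00 for the sum). The summed level was 2735 ± 257 FPKM in wild type and 2731 ± 226 in transgenic islets (SD, n = 2 per group).

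**Figure D4:**
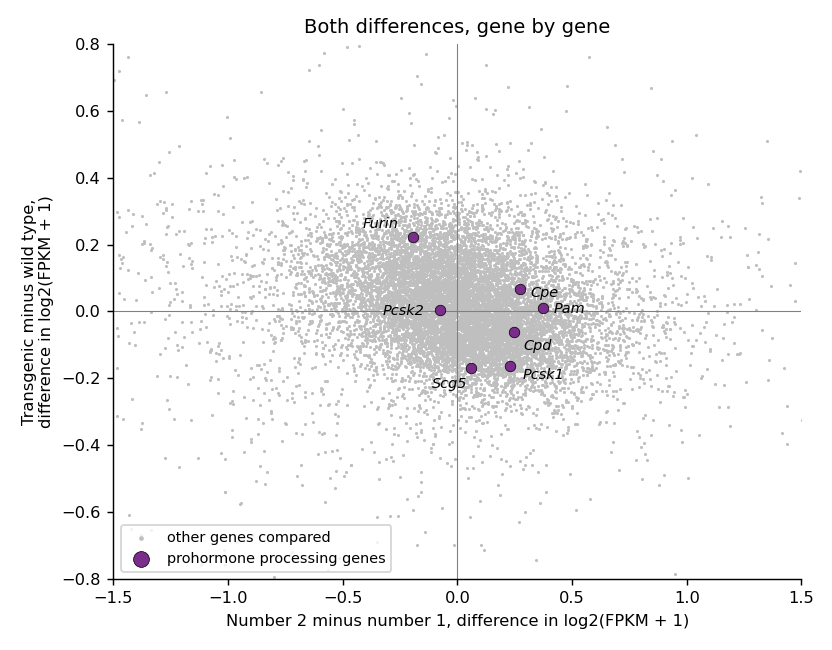
Each gene compared as a grey point, by its difference between numbers (horizontal) and between genotypes (vertical), both in log2(FPKM + 1), with the 7 prohormone processing genes in purple. All 7 lie inside the cloud of other genes, Pam farthest to the right at 0.37 and Furin highest at 0.22, and 231 of the 12716 genes lie outside the axes.

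Over the 4 libraries, the gene pairs of the set with the most alike pattern were Cpe and Pam, at a Euclidean distance of 0.12 between centred log2(FPKM + 1) profiles, and Cpe and Cpd, at 0.15. The least alike were Pam and Furin, at 0.61. Among 6161 other protein-coding genes with a mean of at least 5 FPKM, the most alike to Pam were Dhx32 (distance 0.0086) and Pawr (0.011), and to Cpe Tmem127 (0.019) and Thap3 (0.022). Those most alike to Pcsk1 were Ccar1 (0.022) and Psma4 (0.023), to Pcsk2 Chrnb2 (0.0085) and Ctnnal1 (0.016), and to Scg5 Pias1 (0.0100) and Selenot (0.010). For Cpd they were Aldh6a1 (0.030) and Etfa (0.032), and for Furin Pip5k1c (0.020) and Pnmal2 (0.022). With so few libraries many genes are close: between 96 and 304 genes lay within 0.1 of each gene of the set.

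The other genes of the processing pathway were taken from 7 lists. In the fit with genotype as the only term 0 genes of any list passed, as 0% of all genes did. Of the other convertases, 5 of 6 could be compared, with a median difference of 0.10. Of these, 4 were higher in both numbers, against 33.5% of all genes. Pcsk4, known mainly from germ cells, measured 12.6 and 8.87 FPKM in the wild-type libraries and 14.7 and 13.2 in the transgenic ones, without overlap. Mbtps1, the Golgi protease that cuts SREBP and ATF6 precursors, lay at 10.5 and 10.9 against 12.9 and 11.6. Pcsk7 lay at 4.14 and 4.23 against 4.70 and 3.96. The genotypes also did not overlap for Mbtps1, while they did for Pcsk7. In all, 3 of the 5 were higher without overlap, against 12.2% of all genes.

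The inhibitor and the granule sorting partners of the convertases (6 of 6 compared) had a median of 0.13. In both numbers 4 were higher and 1 lower, against 33.5% and 27.4% of all genes. Chromogranin A, Chga, measured 3378 and 4235 FPKM in the wild-type libraries and 4310.5 and 4279 in the transgenic ones. Secretogranin 2, Scg2, lay at 3685 and 4410 against 3004 and 4398, Chgb at 491 and 446 against 492 and 491, and Scg3, which binds chromogranin A, at 493 and 426 against 516 and 420.5. The transgenic libraries were higher without overlap for 3 of the 6, against 12.2% of all genes: Chga, Chgb, where transgenic 2 at 491 was barely above wild type 1, and Pcsk1n, named after its values were seen, at 371 and 389 against 522 and 491. Of the other basic metallocarboxypeptidases only 2 of 6 could be compared. Cpn1 measured 13.8 and 13.7 FPKM in the wild-type libraries and 15.8 and 16.4 in the transgenic ones, and Cpm, a membrane-bound enzyme, at 2.59 and 2.10 against 2.84 and 2.12.

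Of the other peptide processing enzymes 7 of 8 were compared, with a median of 0.05 and 3 higher in both numbers. Of all genes, 33.5% were. Ece1, which makes endothelin, measured 63.5 and 50.5 FPKM in the wild-type libraries and 72.6 and 62.4 in the transgenic ones, and the cathepsin genes Ctsb and Ctsl lay at 36.7 to 41.6 and 22.5 to 24.7 over all libraries. The insulin-degrading enzyme, Ide, lay at 12.8 and 6.29 against 10.9 and 6.48. Between numbers limma called 2 of these 7 genes lower in number 2, against 10.6% of all genes: Ide at -0.80 ± 0.11 (adjusted p = 0.00968) and Qpctl, a Golgi glutaminyl cyclase named after its values were seen, at -0.61 ± 0.10 (adjusted p = 0.0152).

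The 4 genes that supply Pam with copper and ascorbate had a median of 0.07 between genotypes. In both numbers 2 were higher and 1 lower, against 33.5% and 27.4% of all genes. The copper chaperone Atox1 measured 26.3 and 46.6 FPKM in the wild-type libraries and 30.4 and 48.9 in the transgenic ones, number 1 before number 2, and it rose from number 1 to number 2 by 0.73 ± 0.11 (limma adjusted p = 0.0120), the only one of the 4 called there, against 10.1% of all genes called higher. Cyb561, which carries electrons to granule ascorbate, lay at 19.9 and 19.8 against 22.5 and 20.2. The copper importer Slc31a1 lay at 9.05 and 6.79 against 8.12 and 8.17. The copper pump Atp7a, which fills the secretory pathway, lay at 4.04 and 5.64 against 3.49 and 4.96.

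Acidification of granules, on which Pcsk2 and Cpe depend, was represented by 8 genes with a median of -0.04 between genotypes. In both numbers 5 of them were lower and 2 higher, against 27.4% and 33.5% of all genes. The accessory subunits Atp6ap2 and Atp6ap1 lay at 114 to 124 and 69.4 to 81.2 FPKM, and Atp6v1b2 at 53.0 to 58.8. Atp6v0d1 lay at 65.7 and 45.3 in the wild-type libraries and at 70.5 and 41.8 in the transgenic ones, number 1 before number 2, and limma called it lower in number 2 (-0.63 ± 0.10, adjusted p = 0.0140). Atp6v1a, named after its values were seen, was called higher there (0.46 ± 0.10, limma adjusted p = 0.0320). That is 1 of 8 in each direction, against 10.6% of all genes lower and 10.1% higher.

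The substrates, 8 hormone genes, had a median of -0.07 between genotypes. In both numbers 5 were lower and 1 higher, against 27.4% and 33.5% of all genes. Ins2, one of the mouse insulin genes, measured 152363 and 211742 FPKM in the wild-type libraries and 89340.3 and 200260.2 in the transgenic ones, with transgenic 1 far below the rest. Ins1 lay at 42407 and 44326 against 38067 and 42284, the amylin gene Iapp at 26071 and 26858 against 21406 and 24883, and Gcg at 12617 and 12206 against 11842 and 11521. For 4 of the 8 both transgenic libraries were below both wild-type ones, against 9.03% of all genes. These were Ins1, Iapp and Gcg, with differences of -0.11 ± 0.19, -0.20 ± 0.20 and -0.09 ± 0.19, and Pyy, named after its values were seen, with -0.05 ± 0.18 (limma adjusted p = 1.00 for each). Between numbers Ppy and Sst, the hormones of PP and delta cells, named after their values were seen, were called higher in number 2, by 1.21 ± 0.11 and 0.72 ± 0.12 (limma adjusted p = 0.00479 and 0.0154), which is 2 of 8 against 10.1% of all genes.

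**Figure D5:**
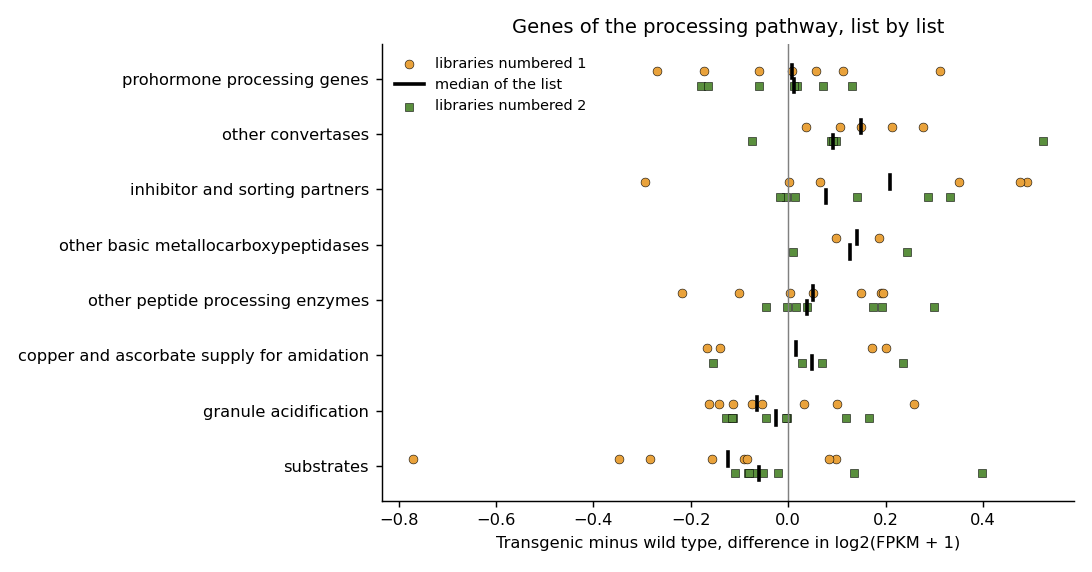
Difference in log2(FPKM + 1), transgenic minus wild type, of each gene compared, in rows by list, for libraries numbered 1 (orange circles) and 2 (green squares), with the median of the list as a black bar. The medians of the prohormone processing genes lie at 0.01 in both numbers, and the largest shift among all the genes drawn is that of Ins2 in number 1, to the left.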

How the data were processed

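The authors deposited FPKM and gene lengths for 54532 genes, with no other column of samples. HTSeq 0.6.0 and the build GRCm38 are named in the submitters' processing notes, and the aligner and the strand setting are not given in the sources used here. Deposited FPKM times gene length was a whole multiple of 1 step per library (within 0.001) in 100% of the nonzero values, and the multiples serve as reads here. They sum to 23730364, 27080907, 23654135 and 21670854 in wild type 1 and 2 and transgenic 1 and 2. The step implies totals 0.957 to 1.09 times these sums, so the values hold another library factor, whose origin is not given. In the same order of libraries it was 1.006, 0.957, 1.090 and 0.970. The TMM factors computed here from the reads were near it, at 1.005, 0.949, 1.093 and 0.959.

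The 12716 genes that reached 1 FPKM in 2 or more libraries entered limma 3.58.1 under R 4.3.3, which fitted log2(FPKM + 1) with lmFit and a trended eBayes. Genotype or library number was the only term, the test was 2-sided, and Benjamini-Hochberg adjustment ran over all genes compared with a threshold of 0.05. Folds on this scale understate the change of low genes. The limma fits were also run on simulated counts with a fixed spread that was not taken from these libraries. No power or error rate for these data follows from that run. Alternatives were a pseudocount of 0.1, no filter, a filter at 5 FPKM, a scaling without Ins1, Ins2 and Iapp, median-of-ratios scaling, voom in limma on the reads with TMM scaling, each library left out, and the replicate number as a block. Removal of each library's lowess curve (span 0.3) on GC content was added after seeing the data. The curve was fitted to each gene's deviation from its mean log2(FPKM + 1) over the libraries. GC content is that of the longest transcript in GENCODE M21 on GRCm38, found for 12705 of the genes compared.

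Named are the 7 genes of the set, up to 4 genes per pathway list with the highest mean FPKM (1 of them is not reported here), Mir29a and Mir29b-1, and for each gene of the set the 2 most alike genes. Other names were chosen after their values were seen, as stated beside them. The set and the lists were chosen with earlier results of these data known.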

Additional observations from a re-analysis of the deposited data

How the results depend on the processing

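Under the 14 alternatives tried for genotype, none of the 7 genes passed. Scg5 stayed below 0 and Furin above 0 in all of them. Median-of-ratios scaling turned Pcsk2 to -0.0095 and Pam to -0.0045. Without a library in turn, the lone library of its group was assumed to vary like the others, and the genotype difference ranged from -0.33 to 0.0023 for Pcsk1, -0.065 to 0.076 for Pcsk2, -0.094 to 0.23 for Cpe, -0.24 to 0.12 for Cpd and -0.18 to 0.20 for Pam. The number difference of Scg5 ranged from -0.026 to 0.15 and that of Pam from 0.37 to 0.38. The transgenic minus wild-type difference ranged from -0.015 to 0.75 for the Pcsk2 to Pcsk1 ratio, -0.0024 to 0.00044 for Pam to Cpe and -185 to 177 FPKM for the sum of the set. The genes called between numbers went from 2630 to 274 with no filter on low values, where Pam (0.37) was no longer called, and to 835 to 1822 without a library, where fewer samples were fitted. Same-numbered libraries deviated together (r = 0.775 across genes, which are not replicates), but with 2 pairs and no statement in the labels they share only a number. With the replicate number as a block limma called 0 genes between genotypes. Without adjustment it put 1360 genes under 0.05, against 83 with genotype as the only term. With the GC curve also removed it called 4. The same block in voom on the reads called 248 (212 higher, 36 lower), none of the set: Furin had the smallest adjusted p of the 7, 0.133. Pcsk1n was called there (0.41 ± 0.09, adjusted p = 0.00818), and in none of the other alternatives. The cause of these shifts was not tested. Depth limits Furin most, which has the fewest reads of the set.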

Other observations

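Pcsk1n, which encodes proSAAS, a granule protein with a peptide that inhibits Pcsk1, was singled out after its values were seen. It measured 371 and 389 FPKM in the wild-type libraries and 522 and 491 in the transgenic ones, number 1 before number 2, so both transgenic libraries were above both wild-type ones, as in 12.2% of all genes compared. The difference was 0.41 ± 0.18 (standard error, n = 2 per group, limma adjusted p = 1.00), with 0.49 in number 1 and 0.33 in number 2. Its GC content is 57.3%, and with the GC curve removed the difference was 0.27 ± 0.18 (limma adjusted p = 1.00). The ratio of Pcsk1n to Pcsk1 was 2.86 and 2.75 in wild type and 4.86 and 3.61 in transgenic islets (exact permutation p = 0.333, 2-sided, the smallest that 2 against 2 libraries can give). An effect of GC content does not cancel in this ratio, as that of Pcsk1 is 40.6%.

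The spread within a genotype was larger than counting error for each gene of the set in both genotypes, though only slightly for Pcsk2 in transgenic islets (coefficient of variation 0.422% against a counting error of 0.376%). For Pam it was 18.4% in wild type and 18.7% in transgenic islets against counting errors of 0.887% and 0.907%.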
